A study of Chionodraco hamatus and Gymnodraco acuticeps and Trematomus bernacchii with 9 samples.

Results

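Subunits and helpers of the proteasome were followed in the head kidney, the blood-forming organ of bony fish, of 3 Antarctic notothenioid species. Members were chosen by a rule on protein names that uses no values, though with earlier results of these data known. The rule covers core subunits, regulatory cap subunits, activators and assembly chaperones. It takes all rows of the count table with the UniProt mnemonic (the first part of an entry name) of such a protein. Of 12653 rows, 35 carried such a mnemonic. In 4 of them (PSD1_MOUSE, PSD1_RAT, PSD2_MOUSE and PSD4_MOUSE) the mnemonic is UniProt's name for a PH and SEC7 domain protein, a regulator of small GTPases with no place in the proteasome, and these were set apart. The 31 proteasome rows comprised 6 alpha and 5 beta subunits of the core, 1 immune catalytic subunit, 6 ATPases and 6 other subunits of the cap, 3 activators and 4 assembly chaperones. Other core subunits and the other immune subunits were not analysed here.

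The proteasome is the cell's main machine for breaking down ubiquitin-tagged proteins. Stacked alpha and beta rings form a barrel whose beta subunits cut the chain, and a cap of ATPases and ubiquitin receptors unfolds the substrate and feeds it in. In jawed vertebrates interferon-gamma induces immune catalytic subunits and a ring-shaped activator that favour peptides for display on MHC class I, and developing red cells depend on the proteasome while they remodel their contents.

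Bulk RNA-seq was made from the head kidneys of Chionodraco hamatus, an icefish (the family without hemoglobin), and of the red-blooded Gymnodraco acuticeps and Trematomus bernacchii, abbreviated below to C. hamatus, G. acuticeps and T. bernacchii. Each species had 3 libraries from flash-frozen tissue. No treatment, age or sex is given, and the labels do not say whether libraries came from separate animals, so a p-value here covers the spread among the libraries, which may be technical. In bulk RNA, fewer cells of a type and less RNA per cell cannot be told apart. Species and the match of each fish's reads to a row named for a protein of another organism (a mouse, a rat, a zebrafish) cannot be told apart either. Rows are therefore compared across species under that limit, and the levels of different rows within a species are not ranked.

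Total counts were 2501922 to 12055675 per library. All counts above 0 in C. hamatus replicate 3 were even, whereas 47.0 to 52.2% were even in the other libraries. Rank correlations of log CPM over tested rows were 0.796 to 0.854 among the C. hamatus libraries, 0.941 to 0.973 among those of G. acuticeps and 0.826 to 0.933 among those of T. bernacchii. The summed level of 8 erythroid marker rows was 197 to 323 CPM in C. hamatus, 6021 to 16063 CPM in G. acuticeps and 1572 to 2425 CPM in T. bernacchii. The 12 skeletal muscle marker rows summed to 44.1 to 212 CPM, 20396 to 32136 CPM and 338 to 1639 CPM in the same order. Most of the G. acuticeps sums, 20396, 31156 and 32136 CPM, came from the row ACTS_ORYLA alone, at 19039, 30866 and 29894 CPM. That row stood at 127, 192 and 11.5 CPM in C. hamatus and at 18.4, 165 and 10.4 CPM in T. bernacchii. Interrenal and chromaffin markers, of the steroid and catecholamine cells that lie in the fish head kidney, stood apart within C. hamatus. The 5 interrenal rows summed to 24223 CPM in its replicate 3 and to at most 26.1 CPM in its other libraries, and the 8 chromaffin rows to 7360 CPM in replicate 2, 2970 CPM in replicate 3 and 4.64 CPM in replicate 1. The 10 stroma and vessel rows summed to 4182 to 12207 CPM in C. hamatus, with the highest value in replicate 1, 833 to 1576 CPM in G. acuticeps and 964 to 1132 CPM in T. bernacchii.

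Proteasome transcripts took a smaller share of the reads in the icefish. They made up 0.435% ± 0.0484 of all counts in C. hamatus (SD, n = 3), 1.0% ± 0.126 in G. acuticeps and 0.705% ± 0.0681 in T. bernacchii, and the 3 sets of libraries did not overlap. On the scale used from here on, CPM (counts per 1000000, scaled by library size with TMM factors), the 31 rows summed to 5832, 3643 and 3324 CPM in C. hamatus replicates 1 to 3, to 8187, 11162 and 13601 CPM in G. acuticeps, and to 7455, 5574 and 8112 CPM in T. bernacchii. On that scale C. hamatus replicate 1 lay above T. bernacchii replicate 2, and every G. acuticeps library lay above all others.

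**Figure D1:**
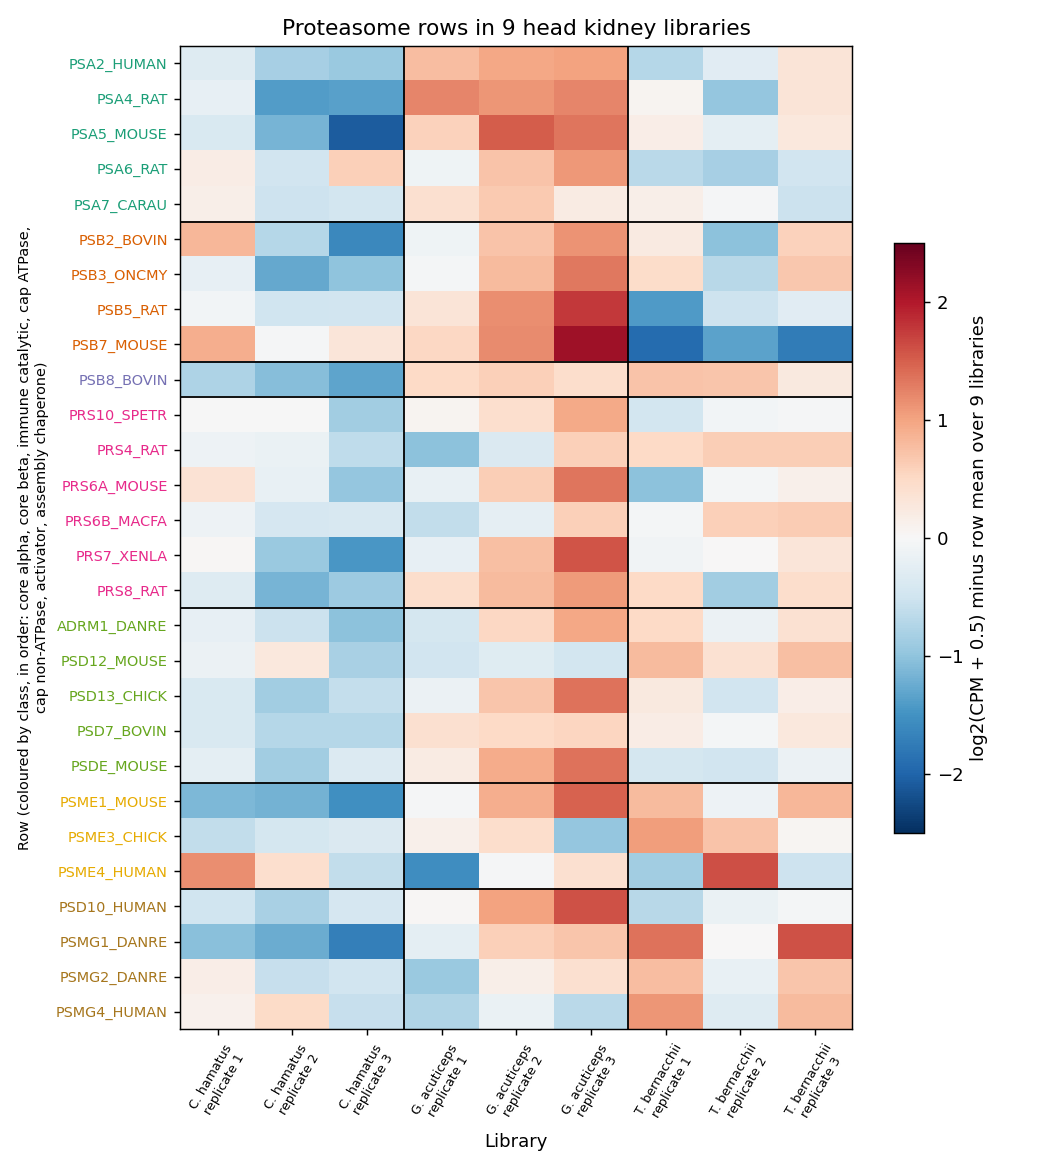
Level of the 28 tested proteasome rows in the 9 libraries, as log2(CPM + 0.5) minus the mean of the row over the libraries (colour scale from -2.5 to 2.5), with rows grouped by role. The C. hamatus columns are mostly below and the G. acuticeps columns of replicates 2 and 3 mostly above the row means.

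Each class of subunit was summed in the same way. The alpha subunits summed to 1820, 1035 and 1115 CPM in C. hamatus, 3601, 4214 and 4229 CPM in G. acuticeps and 1874, 1440 and 2249 CPM in T. bernacchii, so that the lowest G. acuticeps library stood above every library of the other species. The beta subunits summed to 1583, 690 and 602 CPM in C. hamatus, 1204, 2126 and 3085 CPM in G. acuticeps and 1194, 648 and 1531 CPM in T. bernacchii, and all 3 species overlapped. The cap ATPases summed to 1088, 799 and 626 CPM in C. hamatus, 1109, 1604 and 2404 CPM in G. acuticeps and 1263, 1131 and 1491 CPM in T. bernacchii, with the highest icefish library just below the lowest of the others. The other cap subunits summed to 454 ± 64.6, 978 ± 303 and 707 ± 117 CPM in the same order (SD, n = 3 each), and the lowest library of either red-blooded species stood above the highest of the icefish. In the summed activators, too, every icefish library lay below those of both other species, at 269, 253 and 199 CPM in C. hamatus against 520, 984 and 1422 CPM in G. acuticeps and 921, 531 and 926 CPM in T. bernacchii. Most of these sums, with means of 241, 975 and 793 CPM, came from the row PSME1_MOUSE alone, with means of 207, 941 and 737 CPM. Assembly chaperones summed to 123 ± 23.4 CPM in C. hamatus, 204 ± 74.9 CPM in G. acuticeps and 274 ± 103 CPM in T. bernacchii, and here the icefish overlapped G. acuticeps.

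**Figure D2:**
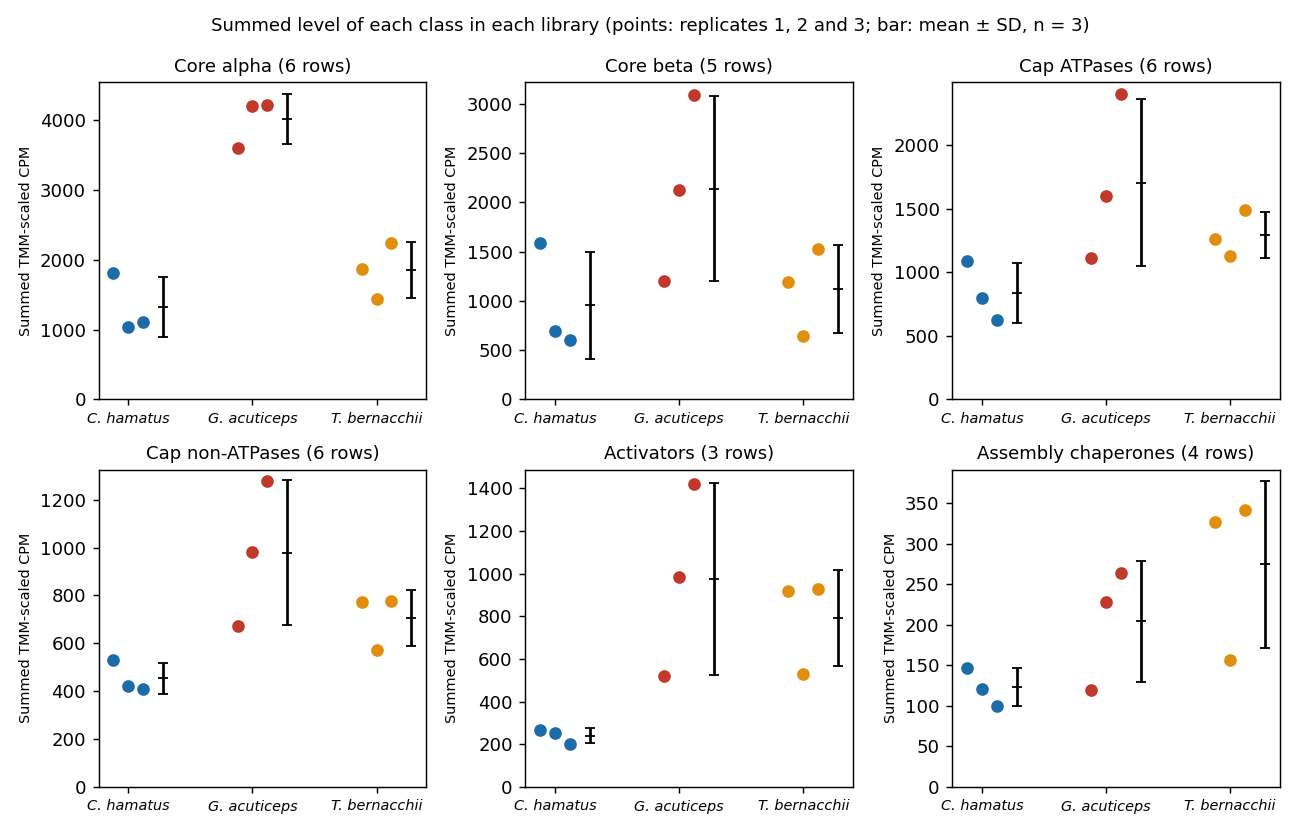
Summed CPM of 6 classes of proteasome rows in each library (points) with the mean and SD of each species (n = 3). The activator panel and both cap panels show all C. hamatus libraries below those of the other species. Most of the activator sum is the row PSME1_MOUSE.

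Of the 31 proteasome rows, 28 had enough reads to be tested. PSA1_HUMAN had 4 counts over the 9 libraries, PSB4_XENLA and PSD11_HUMAN 1 each, and no comparison was made for them. Tests were edgeR quasi-likelihood tests over all 8662 rows that passed the filter, with Benjamini-Hochberg adjustment, and rows under an adjusted p of 0.05 count as called.

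Against G. acuticeps, 14 of the 28 tested proteasome rows were called lower in C. hamatus, where 16.8% of all tested rows were called lower. None was called higher by edgeR, where 25.1% of all tested rows were called higher. DESeq2 also called none of them higher, and 2439 of all 8662 tested rows. No proteasome row was higher at an unadjusted p under 0.05, and the share of all tested rows at that threshold is not given here. The median log2 fold change was -1.04 over the proteasome rows and 0.15 over all tested rows, and 25 of the 28 changes were negative. The libraries of the species did not overlap, with C. hamatus lower, in 15 rows, against 26.7% of all tested rows. Erythroid and skeletal muscle markers were also lower in C. hamatus in this comparison, 7 of 7 and 8 of 10 tested rows, as were 2 of 6 cycling-cell and 2 of 4 neutrophil markers. The erythroid row GATA1_CHICK had reads in G. acuticeps replicate 3 only (13 counts) and was not tested. Stroma and vessel markers were higher in C. hamatus in 6 of 9 tested rows and lower in 1, VWF_HUMAN (log2 fold change -6.06). Chromaffin markers were higher in 4 of 4 and interrenal markers in 2 of 2, with overlapping libraries in each of these rows. In C. hamatus replicate 1 the chromaffin rows summed to 4.64 CPM, against 34.9 to 44.0 CPM in G. acuticeps. The interrenal rows summed to 13.9 and 26.1 CPM in C. hamatus replicates 1 and 2, against 52.0 to 70.4 CPM in G. acuticeps. Also higher in C. hamatus were 2 of 5 B cell, 1 of 2 T cell and 2 of 4 macrophage markers, with no row of the B cell, T cell or macrophage list lower. The part of these markers in the proteasome difference was not tested.

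Among the alpha subunits, which form the outer rings and the gate of the barrel, 3 of 5 tested rows were lower in the icefish than in G. acuticeps. Over all tested rows 16.8% were called lower in this pair, and 26.7% had all C. hamatus libraries lower. PSA5_MOUSE stood at 235, 137 and 72.3 CPM in C. hamatus and at 457, 877 and 780 CPM in G. acuticeps. This was the largest fold among the proteasome rows of this comparison, 4.76-fold lower in the icefish (log2 fold change -2.25, SE 0.50, adjusted p = 0.00523). PSA4_RAT stood at 662, 290 and 298 CPM against 1765, 1637 and 1768 CPM. The log2 fold change of -2.05 (SE 0.50, adjusted p = 0.0083) is 4.14-fold, and the G. acuticeps libraries lay close together. PSA2_HUMAN stood at 379, 265 and 247 CPM against 809, 921 and 943 CPM (log2 fold change -1.59, SE 0.41, adjusted p = 0.0107). None of the 3 rows overlapped between the species. The other alpha rows were not called: PSA7_CARAU had 336, 213 and 222 CPM against 401, 481 and 350 CPM, and PSA6_RAT overlapped, with 208, 130 and 275 CPM against 168, 298 and 387 CPM.

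Of 4 constitutive beta subunits, 2 were lower in the icefish than in G. acuticeps, where 16.8% of all tested rows were called lower. PSB5_RAT, the subunit with chymotrypsin-like activity, stood at 185, 138 and 140 CPM in C. hamatus and 244, 440 and 667 CPM in G. acuticeps, a 2.92-fold difference (log2 fold change -1.55, SE 0.47, adjusted p = 0.0234). PSB3_ONCMY, a structural subunit without catalytic activity, stood at 313, 148 and 180 CPM against 352, 628 and 897 CPM (log2 fold change -1.55, SE 0.53, adjusted p = 0.0366). Neither row overlapped, although in both the lowest G. acuticeps library came near the highest of C. hamatus. PSB2_BOVIN, another structural subunit, was not called, with 909, 312 and 167 CPM against 475, 845 and 1115 CPM, and its C. hamatus replicate 1 lay above 2 of the G. acuticeps libraries. PSB7_MOUSE, the subunit with trypsin-like activity, stood at 176, 91.7 and 115 CPM against 133, 212 and 406 CPM and was not called in this pair.

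In the cap, 2 of 6 ATPases and 3 of 5 other subunits were lower in the icefish than in G. acuticeps. The share called lower over all tested rows was 16.8%. The ATPases form a ring that unfolds substrates. PRS8_RAT stood at 294, 164 and 195 CPM against 499, 635 and 768 CPM, with no overlap (log2 fold change -1.54, SE 0.47, adjusted p = 0.0229). PRS7_XENLA, at 178, 91.4 and 63.5 CPM against 152, 295 and 518 CPM, was called with overlapping libraries (log2 fold change -1.53, SE 0.53, adjusted p = 0.0407). Its change was -2.14 when C. hamatus replicate 1 was left out. The other 4 ATPases had negative log2 fold changes and were not called. Among the other cap subunits, PSDE_MOUSE is the deubiquitinase that removes ubiquitin from the substrate, and PSD7_BOVIN is its inactive partner. PSDE_MOUSE stood at 95.8, 62.6 and 90.1 CPM against 132, 217 and 293 CPM (log2 fold change -1.37, SE 0.40, adjusted p = 0.0191). PSD7_BOVIN was among the steadiest rows, at 155, 124 and 124 CPM against 267, 287 and 293 CPM (log2 fold change -1.07, SE 0.33, adjusted p = 0.0239). PSD13_CHICK, a structural subunit of the lid, stood at 125, 89.3 and 109 CPM against 149, 265 and 421 CPM (log2 fold change -1.37, SE 0.45, adjusted p = 0.0307). These 3 rows did not overlap between the species. ADRM1_DANRE, a ubiquitin receptor, had 103, 80.9 and 58.0 CPM against 86.5, 169 and 232 CPM and was not called. PSD12_MOUSE, another lid subunit, had 49.6, 66.0 and 31.0 CPM against 38.9, 44.5 and 39.9 CPM and was one of the 3 rows with a positive change, with PSME4_HUMAN and PSMG4_HUMAN.

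**Figure D3:**
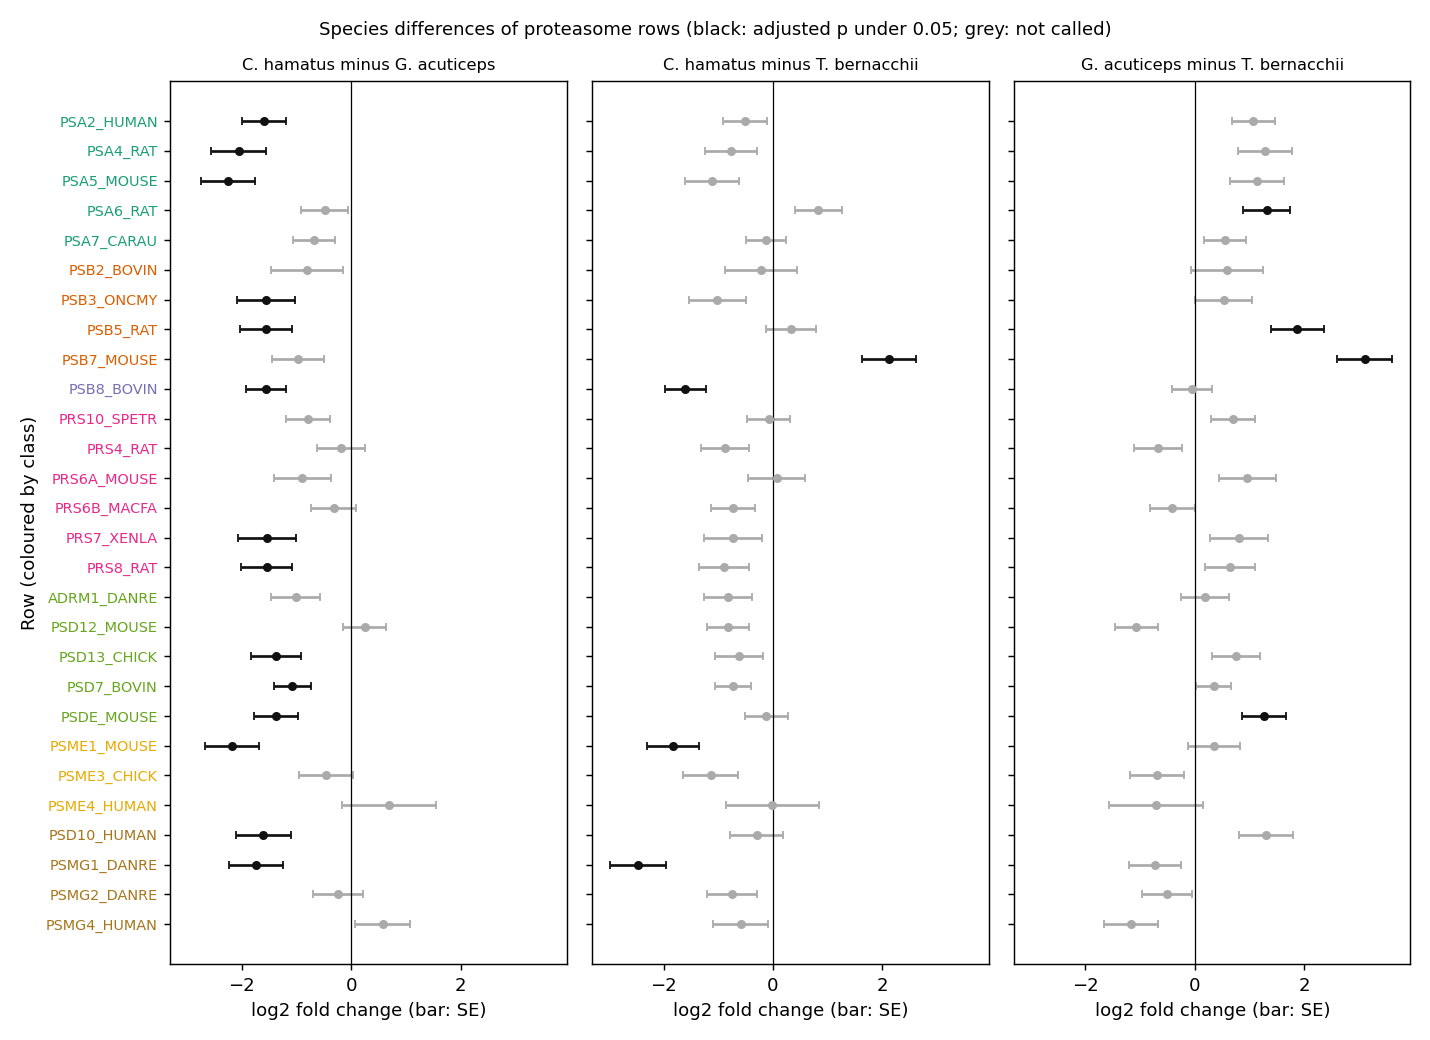
Log2 fold change of each tested proteasome row in the 3 pairs of species, with SE as bars, and rows called at an adjusted p under 0.05 in black. The 14 called rows of C. hamatus minus G. acuticeps all lie below 0, while the comparison with T. bernacchii has 3 called rows below 0 and 1 above.

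The immune catalytic subunit, an activator and an assembly chaperone were lower in C. hamatus than in each red-blooded species. These pairs share the C. hamatus libraries and are not independent. Against T. bernacchii these 3 rows are 10.7% of the 28 tested, where 14.8% of all tested rows were called lower. PSB8_BOVIN replaces the chymotrypsin-like subunit in the immunoproteasome, the form that interferon-gamma induces. It stood at 397, 323 and 271 CPM in C. hamatus, 959, 1023 and 918 CPM in G. acuticeps and 1105, 1095 and 798 CPM in T. bernacchii. The icefish libraries were all below the others, and the red-blooded species overlapped. The difference was 2.93-fold against G. acuticeps (log2 fold change -1.55, SE 0.37, adjusted p = 0.00743) and 3.03-fold against T. bernacchii (log2 fold change -1.60, SE 0.37, adjusted p = 0.00796). Between the red-blooded species the log2 fold change was -0.05 (adjusted p = 0.945).

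PSME1_MOUSE is the alpha subunit of the ring-shaped activator that interferon-gamma induces alongside the immune subunits. It stood at 229, 221 and 172 CPM in C. hamatus, 488, 938 and 1395 CPM in G. acuticeps and 861, 457 and 892 CPM in T. bernacchii. The icefish libraries again lay below all others and close together, whereas the red-blooded libraries spread widely. The row was 4.53-fold lower than in G. acuticeps (log2 fold change -2.18, SE 0.49, adjusted p = 0.0054) and 3.55-fold lower than in T. bernacchii (log2 fold change -1.83, SE 0.48, adjusted p = 0.0153). The other activators did not pass the test in any pair. PSME3_CHICK, a nuclear relative of PSME1, had 16.9, 19.3 and 20.3 CPM in C. hamatus, 28.6, 35.9 and 13.2 CPM in G. acuticeps and 54.6, 43.1 and 27.3 CPM in T. bernacchii. PSME4_HUMAN, a large single-chain activator, had 23.2, 13.5 and 6.35 CPM, 3.11, 9.80 and 13.4 CPM, and 5.23, 31.6 and 6.89 CPM in the same order, and all species overlapped.

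PSMG1_DANRE helps assemble the alpha ring, as a pair with PSMG2. It stood at 25.3, 22.3 and 15.9 CPM in C. hamatus, 44.5, 80.9 and 86.2 CPM in G. acuticeps and 136, 53.5 and 160 CPM in T. bernacchii. No icefish library reached those of the others. It was 3.34-fold lower than in G. acuticeps (log2 fold change -1.74, SE 0.49, adjusted p = 0.0173) and 5.51-fold lower than in T. bernacchii (log2 fold change -2.46, SE 0.51, adjusted p = 0.00458). Its partner PSMG2_DANRE overlapped between all species, at 73.3, 44.0 and 46.9 CPM, 34.2, 72.9 and 86.6 CPM, and 112, 57.5 and 106 CPM, and was not called. PSD10_HUMAN, the cap assembly chaperone also known as gankyrin, stood at 16.9, 13.5 and 17.9 CPM in C. hamatus and 24.6, 48.5 and 73.4 CPM in G. acuticeps, and was 3.03-fold lower in the former (log2 fold change -1.60, SE 0.50, adjusted p = 0.0262). Its T. bernacchii libraries, at 14.7, 21.5 and 23.4 CPM, overlapped those of C. hamatus. PSMG4_HUMAN, a further chaperone of core assembly, had 31.3, 40.9 and 19.5 CPM, 17.1, 25.9 and 18.2 CPM, and 63.6, 23.2 and 50.9 CPM and was not called.

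The calls against G. acuticeps differed in how much they rested on single libraries. PSA2, PSA4, PSA5, PSB8 and PSME1 stayed called without any one library, while the other 9 were all lost without G. acuticeps replicate 2 (adjusted p 0.0533 to 0.0804) or replicate 3 (0.0597 to 0.172). Without C. hamatus replicate 2, 6 calls remained, and without its replicate 3, 9. Without T. bernacchii replicate 1 PRS7_XENLA alone was lost (adjusted p = 0.0522). When the 2 C. hamatus libraries rich in chromaffin or interrenal transcripts were both left out, no row was called in this pair (adjusted p 0.0825 to 0.406 and log2 fold changes of -2.04 to -0.86 for the 14 rows, with replicate 1 assumed to vary like the other groups), the median was -0.76 and 23 of 28 changes were negative.

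Against T. bernacchii, 3 proteasome rows were lower in C. hamatus, the immune subunit PSB8, the activator PSME1 and the chaperone PSMG1, and 1 was higher, PSB7_MOUSE. These are 10.7% and 3.57% of the 28 rows. Over all tested rows 14.8% were called lower and 17.6% higher, so neither share of called rows is above the background. The median log2 fold change was -0.73 over the proteasome rows and 0.02 over all tested rows. The libraries did not overlap, with C. hamatus lower, in 10 rows, and with C. hamatus higher in 2, against 21.4% and 22.2% of all tested rows. None of the alpha subunits, cap ATPases and other cap subunits was called by edgeR, with medians of -0.51, -0.73 and -0.73. At an unadjusted p under 0.05, 6 of the 28 rows were lower, and DESeq2 called 4 lower, with PSD7_BOVIN as the addition, and 1 higher. Of all 8662 tested rows DESeq2 called 1518 lower and 1870 higher, and the share at an unadjusted p under 0.05 is not given here. The beta subunits had a median of 0.05. Erythroid markers were lower in C. hamatus in 6 of 7 and skeletal muscle markers in 5 of 10 tested rows of this comparison, as were 2 of 4 neutrophil and 1 of 6 cycling-cell markers. Stroma and vessel markers were higher in 5 of 9 and interrenal markers in 2 of 2 tested rows. In both interrenal rows the libraries of the species overlapped, and only C. hamatus replicate 3 was far above the rest. B cell markers (5 tested) and T cell markers (2 tested) each had 1 row higher and 1 lower. No macrophage or chromaffin marker was called, and the part of all these was not tested. The PSME1 call was lost without T. bernacchii replicate 1 (adjusted p = 0.0521) or replicate 3 (0.058). With C. hamatus replicate 1 alone, PSB8, PSME1 and PSMG1 all lost their calls (adjusted p 0.089 to 0.16), with log2 fold changes of -2.19 to -1.31, and the median over the 28 rows was -0.35.

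The trypsin-like subunit PSB7_MOUSE was low in T. bernacchii. Its libraries stood at 24.2, 36.3 and 27.3 CPM there, against 176, 91.7 and 115 CPM in C. hamatus and 133, 212 and 406 CPM in G. acuticeps. Every T. bernacchii library lay below all others. The row was 4.36-fold higher in C. hamatus (log2 fold change 2.12, SE 0.49, adjusted p = 0.00787) and 8.57-fold higher in G. acuticeps (log2 fold change 3.10, SE 0.51, adjusted p = 0.00129). Both calls held under all alternatives run, including C. hamatus replicate 1 alone. No second row of this mnemonic was in the table.

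Between the red-blooded species the share of rows called higher in G. acuticeps was near the background, and the share called lower was below it. In G. acuticeps 4 of the 28 rows (14.3%) were higher than in T. bernacchii, where 13.1% of all tested rows were called higher, and none was lower by edgeR, where 18.3% of all tested rows were. At an unadjusted p under 0.05, 8 were higher and 2 lower, and DESeq2 called 7 higher and 1 lower, PSD12_MOUSE. Of all 8662 tested rows DESeq2 called 1469 higher and 1862 lower. The share of all tested rows at an unadjusted p under 0.05 is not given here. The median log2 fold change was 0.57 over the proteasome rows and -0.12 over all tested rows. G. acuticeps lay above T. bernacchii without overlap in 11 rows and below in 1, against 24.7% and 27.2% of all tested rows. In skeletal muscle markers 2 of 10, and in erythroid markers 4 of 7, tested rows were higher in G. acuticeps, and 1 erythroid row was lower. T cell markers were lower in 2 of 2, neutrophil markers in 2 of 4 and macrophage markers in 1 of 4 tested rows. B cell markers had 1 row higher and 1 lower of 5, and stroma and vessel markers 2 higher and 1 lower of 9. The part of all these was not tested.

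The 4 rows were PSB7 and 3 others. PSB5_RAT stood at 244, 440 and 667 CPM in G. acuticeps and at 73.0, 136 and 160 CPM in T. bernacchii, 3.66-fold higher in the former (log2 fold change 1.87, SE 0.48, adjusted p = 0.0129). PSA6_RAT stood at 168, 298 and 387 CPM against 113, 102 and 130 CPM (log2 fold change 1.31, SE 0.43, adjusted p = 0.0424). PSDE_MOUSE stood at 132, 217 and 293 CPM against 84.5, 82.1 and 103 CPM (log2 fold change 1.26, SE 0.40, adjusted p = 0.0351). None of these rows overlapped between the red-blooded species. The calls of PSA6 and PSDE were lost without either of G. acuticeps replicates 2 and 3 or without any 1 of the T. bernacchii libraries (adjusted p 0.0534 to 0.137), and that of PSB5_RAT without T. bernacchii replicate 1 (adjusted p = 0.0549). Medians by class were 1.13 for alpha subunits, 1.23 for beta subunits, 0.67 for cap ATPases and 0.34 for other cap subunits, but -0.69 for activators and -0.62 for assembly chaperones. No activator or chaperone was called by edgeR. PSA2_HUMAN, PSA4_RAT and PSA5_MOUSE stood at 288 to 594, 391 to 948 and 260 to 367 CPM in T. bernacchii, each below the lowest G. acuticeps library, without passing the edgeR test (adjusted p = 0.066, 0.0704 and 0.103). DESeq2's test did call PSA2_HUMAN, PSA4_RAT and the chaperone PSD10_HUMAN higher in G. acuticeps. With only the 6 libraries of the pair, PSA4_RAT and PSA5_MOUSE were called higher.

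**Figure D4:**
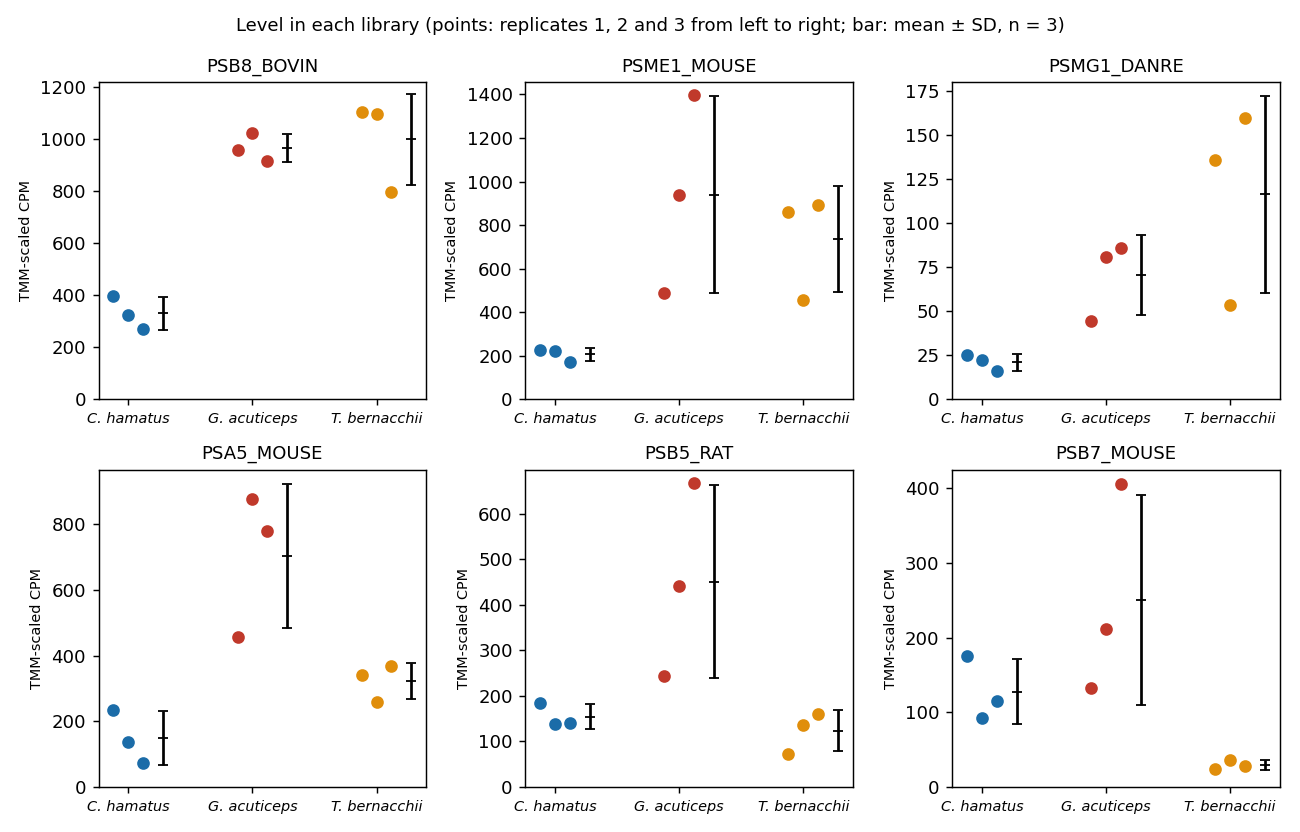
CPM of 6 proteasome rows in each library, replicates 1 to 3 from left to right within a species, with the mean and SD (n = 3). PSB8_BOVIN, PSME1_MOUSE and PSMG1_DANRE are lowest in all C. hamatus libraries, PSA5_MOUSE and PSB5_RAT are highest in G. acuticeps, and PSB7_MOUSE is lowest in all T. bernacchii libraries.

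Pairs of subunits were also set against each other as ratios of counts within a library, which the scaling does not touch. The ratios were chosen after the levels were seen, their size depends on how reads match each row, and only their differences between species are described. The ratio of the immune subunit PSB8_BOVIN to its constitutive counterpart PSB5_RAT was 2.14, 2.34 and 1.94 in C. hamatus libraries, 3.93, 2.32 and 1.38 for G. acuticeps and 15.1, 8.05 and 4.98 for T. bernacchii. All T. bernacchii libraries lay above the others, and C. hamatus lay within the range of G. acuticeps. Both PSB8 and PSB5 were lower in the icefish than in G. acuticeps, whereas PSB5_RAT was not called between C. hamatus and T. bernacchii (log2 fold change 0.33, adjusted p = 0.632). The ratio of PSB7_MOUSE to PSB5_RAT was 0.949, 0.666 and 0.824 in C. hamatus libraries, 0.545, 0.482 and 0.609 for G. acuticeps and 0.331, 0.267 and 0.170 for T. bernacchii, with no overlap between any of the species. The ratio of PSME1_MOUSE to PSA5_MOUSE was 0.975, 1.61 and 2.38 in C. hamatus libraries, 1.07, 1.07 and 1.79 for G. acuticeps and 2.52, 1.76 and 2.43 for T. bernacchii, with overlap in all pairs. In 9 two-sided exact permutation tests of log2 ratios (3 ratios, 3 pairs of species) p was 0.1 for all pairs of PSB7 over PSB5 and for both pairs of PSB8 over PSB5 that involve T. bernacchii (Benjamini-Hochberg adjusted 0.18). That is the smallest p that 3 libraries against 3 can give, so none can pass 0.05. The p was 0.8 for PSB8 over PSB5 between C. hamatus and G. acuticeps (adjusted 0.8), and 0.2 to 0.7 for PSME1 over PSA5 (adjusted 0.257 to 0.787).

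Set against the mean of both red-blooded species, 8 of the 28 proteasome rows were lower in C. hamatus, where 14.3% of all tested rows were called lower. None was called higher by edgeR, where 26.5% of all tested rows were called higher. DESeq2 also called none of them higher, and 2449 of all 8662 tested rows. At an unadjusted p under 0.05 no proteasome row was higher, and the share of all tested rows there is not given here. The 8 lower rows were PSA2, PSA4, PSA5, PSB8, PRS8, PSD7, PSME1 and PSMG1. PSA2, PSA4, PSA5, PRS8 and PSD7 were called against G. acuticeps but not against T. bernacchii (edgeR adjusted p = 0.362, 0.251, 0.102, 0.163 and 0.113). PSB8, PSME1 and PSMG1 were called against each of them. The largest change of the 8 rows was in PSMG1_DANRE (log2 fold change -2.10, adjusted p = 0.00478), followed by PSME1_MOUSE (-2.00, adjusted p = 0.00525), PSA5_MOUSE (-1.69, adjusted p = 0.0131) and PSB8_BOVIN (-1.57, adjusted p = 0.00408). These 4 stayed called without any one library. The other 4 were lost without C. hamatus replicate 2 (adjusted p 0.0896 to 0.13) or replicate 3 (0.0669 to 0.0986), without G. acuticeps replicate 2 or 3, or without T. bernacchii replicate 3. Of these, PSA2 also lost its call when G. acuticeps replicate 1 was left out (adjusted p = 0.0541), and the other 3 without T. bernacchii replicate 1 (0.0553 to 0.0791). With C. hamatus replicate 1 alone none was called (adjusted p 0.0856 to 0.418), with log2 fold changes of -1.85 to -0.68 in the 8 rows.

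Within each species many proteasome rows were highest, or lowest, in the same library. The median over the 28 rows of log2(CPM + 0.5), less the row's mean over the 9 libraries, was -0.17, -0.64 and -0.76 in C. hamatus libraries, -0.04, 0.68 and 1.03 for G. acuticeps and 0.17, -0.15 and 0.28 for T. bernacchii, while the same median over all tested rows stayed within 0.16 of 0. C. hamatus replicate 1 was the highest library of its species in 22 of 28 rows, and in 32.5% of all tested rows. G. acuticeps replicate 3 was likewise highest in 22, against 36.7%, and its replicate 1 was lowest in 24, against 45.5%. T. bernacchii replicate 3 was highest in 16, against 34.7%. In each species the library with the highest median was also the one with the most reads, and the part of depth was not tested. The lead of C. hamatus replicate 1 depended partly on the TMM factors. Its libraries summed to 5832, 3643 and 3324 CPM for replicates 1 to 3, but to 0.486, 0.43 and 0.39% of all counts without these factors. C. hamatus replicate 1, the one nearest to the red-blooded libraries, was also the one at 4.64 CPM of chromaffin markers and at 833 CPM of cycling-cell markers, against 160 and 268 CPM in replicates 2 and 3, and the part of these was not tested.

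The remaining cap ATPases were not called in any comparison. PRS4_RAT stood at 197, 190 and 137 CPM in C. hamatus, 105, 167 and 323 CPM in G. acuticeps and 303, 327 and 326 CPM in T. bernacchii, where its libraries lay close together and above those of the icefish. PRS10_SPETR, PRS6A_MOUSE and PRS6B_MACFA had group means of 145, 113 and 76.2 CPM in C. hamatus, 248, 209 and 95.1 CPM in G. acuticeps and 153, 108 and 126 CPM in T. bernacchii. PSD4_MOUSE, the PH and SEC7 domain protein that passed the filter, stood at 13.9, 59.2 and 14.3 CPM in C. hamatus, 53.2, 46.5 and 39.5 CPM in G. acuticeps and 147, 118 and 142 CPM in T. bernacchii, and was lower in C. hamatus than in T. bernacchii (log2 fold change -2.23, SE 0.58, adjusted p = 0.0139). The change was -3.26 without C. hamatus replicate 2.

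Further proteins of the cap or of its assembly carry other mnemonics (PSMD and DSS1) and fall outside the name rule. PSMD5_MOUSE and PSMD9_RAT are counted here but act in cap assembly, and neither was called. Of 8 such rows, 3 were lower in the icefish than in G. acuticeps and none was called in the other pairs of species. That is 37.5% of a short list, where 16.8% of all tested rows were called lower. DSS1_MOUSE, the smallest lid subunit, stood at 426, 222 and 264 CPM in C. hamatus and 972, 1022 and 767 CPM in G. acuticeps (log2 fold change -1.60, SE 0.45, adjusted p = 0.0169). The lid subunits PSMD6_HUMAN and PSMD8_MOUSE had log2 fold changes of -1.43 (SE 0.48, adjusted p = 0.0345) and -1.22 (SE 0.43, adjusted p = 0.0441). The list's median was -0.55 in this pair, -0.02 against T. bernacchii and 0.54 between the red-blooded species. PSMD1_PONAB, the large scaffold of the cap base, had 959, 1315 and 341 CPM in C. hamatus against 689, 564 and 610 CPM in G. acuticeps and was not called.

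Among 18 partners and regulators of the proteasome, 5 were lower in the icefish than in G. acuticeps and 2 were lower than in T. bernacchii, with none higher. These are 27.8% and 11.1% of the list, where 16.8% and 14.8% of all tested rows were called lower, so the share against T. bernacchii is not above the background. POMP_BOVIN, the maturation protein that completes the core, stood at 290, 171 and 241 CPM in C. hamatus, 753, 955 and 1136 CPM in G. acuticeps and 885, 281 and 956 CPM in T. bernacchii. It was lower than in G. acuticeps (log2 fold change -2.02, SE 0.51, adjusted p = 0.0102) and than in T. bernacchii (log2 fold change -1.60, SE 0.51, adjusted p = 0.0341), where replicate 2 overlapped the icefish. RD23A_BOVIN, a shuttle that carries ubiquitin-tagged proteins to the cap, had no read in any C. hamatus library. Against a floor of 3 counts per library it was at least 29.1-fold lower when set against G. acuticeps, and at least 19.6-fold against T. bernacchii. A related row, RD23B_HUMAN, stood at 86.3, 56.5 and 34.9 CPM in C. hamatus, and reads may be divided between such rows. NF2L1_CHICK, a transcription factor that activates proteasome genes in mammals when proteasome activity drops, was lower than in G. acuticeps (log2 fold change -2.08, SE 0.73, adjusted p = 0.0407). TXNL1_HUMAN, a thioredoxin bound to the cap, was lower in the icefish than in G. acuticeps (log2 fold change -1.15, adjusted p = 0.025) and higher in G. acuticeps than in T. bernacchii (1.26, adjusted p = 0.021). ECM29_HUMAN, a scaffold that joins cap and core, was lower in G. acuticeps than in T. bernacchii, with 1.25, 6.78 and 11.6 CPM against 63.1, 53.8 and 94.6 CPM (log2 fold change -3.40, SE 0.89, adjusted p = 0.0153). The median of the 18 rows was -0.75 in the comparison with G. acuticeps and -0.51 in that with T. bernacchii.

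The genes of peptide display and interferon signalling did not share 1 direction. Of 21 tested rows, 4 were higher and 6 lower in the icefish than in G. acuticeps, and 1 was higher and 5 were lower than in T. bernacchii, with medians of 0.35 and -0.67. Over all tested rows 25.1% were called higher and 16.8% lower than in G. acuticeps, against 19.0% and 28.6% of the list, and 17.6% and 14.8% than in T. bernacchii, against 4.76% and 23.8%. IRF1_CHICK, an interferon-responsive factor that in mammals switches on immunoproteasome genes, stood at 217, 114 and 184 CPM in C. hamatus, 3225, 1688 and 1004 CPM in G. acuticeps and 2140, 554 and 1062 CPM in T. bernacchii. Its icefish libraries lay below all others (log2 fold change -3.52, SE 0.66, adjusted p = 0.00212 and -2.87, SE 0.64, adjusted p = 0.00657). NLRC5_ICTPU, named for the activator of MHC class I genes, stood at 0, 0 and 0.794 CPM in C. hamatus, 10.6, 8.54 and 10.4 CPM in G. acuticeps and 10.5, 43.1 and 25.9 CPM in T. bernacchii, and was lower in both comparisons (adjusted p = 0.0048 and 0.00221). IRF2_HUMAN, a repressor related to IRF1, ran the other way: at 19.5, 64.6 and 54.0 CPM it was higher in C. hamatus than in G. acuticeps (log2 fold change 3.86, SE 0.71, adjusted p = 0.00322) and at least 67.4-fold higher than in T. bernacchii, where it had no reads. The peptide transporter rows TAP1_GORGO and TAP2_RAT were not called in either comparison, at 13.7, 113 and 37.7 CPM and 33.4, 102 and 61.2 CPM in C. hamatus.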

How the data were processed

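The authors deposited a table of raw read counts, not normalized. Why all counts above 0 of C. hamatus replicate 3 are even is not given. Per the labels' protocols, total RNA extracted with Trizol went into Illumina TruSeq libraries. How reads were aligned and counted, and against which reference, is not given in the sources used here, and no sequence reference was used. Rows are UniProt entry names (12653 rows, 11291 distinct mnemonics), so rows of related proteins may share reads. Each tested proteasome mnemonic had a single row.

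The fit used edgeR 4.0.16 (R 4.3.3) after filterByExpr and TMM scaling, with 1 estimate of the spread over the 9 libraries. SEs were derived from the test, by dividing the absolute log2 fold change by the root of F. CPM is the count divided by the TMM-scaled library size, times 1000000. A floor of 3 counts per library equals 0.769, 0.664 and 0.683 CPM on average for C. hamatus, G. acuticeps and T. bernacchii. Floors cover counting error only. DESeq2 1.42.0 was an alternative. The fit was also run on simulated counts, and no result given here rests on that run. Figures were drawn with matplotlib 3.10.9.

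Every row of the name rule is counted. Named with values are all immune and activator rows, the top row of each class, up to 8 called rows per direction and comparison, and, from each outside list, up to 4. Rows named beyond that were chosen after their values were seen. The members and lists were chosen with earlier results of these data known. With 3 libraries against 3, an exact permutation test cannot give a p below 0.1, and the ratios of subunits were tested at that limit.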

Additional observations from a re-analysis of the deposited data

How the results depend on the processing

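No called proteasome row changed sign under any alternative run, but many calls were lost under at least 1 of them. With upper-quartile scaling 12 of the 14 lower rows against G. acuticeps stayed called. PRS7_XENLA and PSB3_ONCMY were lost there (edgeR adjusted p 0.0539 to 0.0664). Of the counts of called rows, the 14 lower rows of C. hamatus against G. acuticeps ranged from 5 to 15 when 1 library was left out, were 9 when tested against a fold of 1.5 and 0 with C. hamatus replicate 1 alone. The 3 lower rows against T. bernacchii ranged from 2 to 4 without 1 library and were 0 with C. hamatus replicate 1 alone. The 4 rows higher in G. acuticeps than in T. bernacchii ranged from 1 to 6 without 1 library, were 7 with DESeq2's test, and were 2 with no filter on low counts, with the replicate number as a block, and against a fold of 1.5. The lower count of that pair, 0, was 1 with DESeq2's test, when 50 counts were required in 3 libraries, with only the 6 libraries of the pair, with C. hamatus replicate 1 alone, and 0 to 1 without 1 library. Against the mean of the red-blooded species, the 8 lower rows ranged from 4 to 11 without 1 library, were 5 with upper-quartile scaling, 4 against a fold of 1.5 and 0 with C. hamatus replicate 1 alone. The cause of these changes was not tested.

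Deviations of same-numbered libraries of different species correlated at -0.201 to 0.245, and those of differently numbered libraries at -0.16 to 0.212. These values do not settle whether replicate numbers pair libraries. With the replicate block the counts were 13 lower against G. acuticeps, 3 lower and 1 higher against T. bernacchii and 6 lower against the mean. Halving the even counts of C. hamatus replicate 3, and testing against a fold of 1.5, were chosen after seeing the data, and the halving left all counts of calls as they were. The median log2 fold change of all tested rows for C. hamatus minus G. acuticeps was 0.152 with TMM, 0.164 with DESeq2's size factors and 0.249 with upper-quartile scaling.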
